A study of Mus musculus with 4 samples.

Results

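T cell receptor signalling and the actin machinery that leukocytes use to move and to adhere were followed through 34 named genes in the hearts of mice of 2 genotypes, wild type and heterozygous. Members were taken by gene symbol from a list chosen with earlier results of these data known. Of the members, 31 had a probe set on the array, out of 8251 genes with a probe set of their own. Fyb, Ptpn7 and Cblb had none. The 31 genes were read by 46 probe sets, of which 35, from 28 genes, were bright enough over the arrays to enter the test.

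Total RNA of whole heart was measured on 4 one-colour oligonucleotide arrays. The wild-type group and the heterozygous group each held 2 samples, and each sample pooled RNA of 5 hearts. All were adult males, 8 to 16 weeks old, of a mixed 129/Black Swiss strain. No group was treated, and the labels name no transgene or Cre. The labels do not say whether the pools came from separate animals, so p-values speak only for the spread between these 4 samples. For each probe set the fit draws that spread in part from other probe sets of like brightness. The comparison asks which transcripts differ in level between the genotypes. Signals are linear intensities in the units deposited, and a log2 change is heterozygous minus wild type.

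When a T cell receptor meets its antigen, tyrosines in its signalling chains are phosphorylated and the kinase ZAP70 docks on them. Adaptor proteins then assemble on the membrane, and phospholipase C, Ras and Vav1 are activated there. Phosphatases and the kinase Csk restrain the cascade. Vav1 and related exchange factors switch on Rac, which with the Wiskott-Aldrich syndrome protein and coronin rebuilds the actin network at the contact site, while integrins hold the cells together. Most of these proteins are made in blood cells and not in heart muscle cells. Healthy heart tissue holds few lymphocytes.

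Promoter sequences are given for 4 members because genes of blood cells often carry sites of ETS-family factors, such as PU.1 and ETS1, close to their start. Each line shows the 250 bases before the start in RefSeq (GRCm38.p6), written along the gene's own strand, with the letters AGGAAG or their reverse complement CTTCCT in capitals. Vav1 (at chr17:57278850-57279099 (plus strand)) and Lcp2 (at chr11:34046678-34046927 (plus strand)) fell, as did Cd247 (at chr1:165788431-165788680 (plus strand)), while Lat (at chr7:126369569-126369818 (minus strand)) did not pass the test.
Vav1: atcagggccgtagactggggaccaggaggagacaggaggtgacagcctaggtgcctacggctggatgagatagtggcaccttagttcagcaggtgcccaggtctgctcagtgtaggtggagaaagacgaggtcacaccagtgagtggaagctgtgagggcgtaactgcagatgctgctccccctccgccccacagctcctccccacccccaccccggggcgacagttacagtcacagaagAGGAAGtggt
Lcp2: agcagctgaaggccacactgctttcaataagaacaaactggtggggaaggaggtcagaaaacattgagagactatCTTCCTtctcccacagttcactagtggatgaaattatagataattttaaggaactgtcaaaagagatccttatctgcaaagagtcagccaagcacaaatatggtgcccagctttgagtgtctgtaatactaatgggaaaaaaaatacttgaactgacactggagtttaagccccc
Cd247: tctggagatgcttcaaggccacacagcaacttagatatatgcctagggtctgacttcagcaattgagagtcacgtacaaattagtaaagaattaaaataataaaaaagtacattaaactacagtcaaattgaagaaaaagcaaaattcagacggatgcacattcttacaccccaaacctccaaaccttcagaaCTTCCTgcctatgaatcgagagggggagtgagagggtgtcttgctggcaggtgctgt
Lat: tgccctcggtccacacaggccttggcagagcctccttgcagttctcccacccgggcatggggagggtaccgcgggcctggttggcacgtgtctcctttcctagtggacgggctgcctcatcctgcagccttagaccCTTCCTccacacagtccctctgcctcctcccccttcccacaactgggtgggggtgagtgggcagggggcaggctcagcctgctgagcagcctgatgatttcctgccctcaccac
The motif began 10 bases before the start of Vav1, 57 before that of Cd247, 114 before that of Lat and 175 before that of Lcp2. Across the list, 21 of 34 promoters (61.8%) of 25 members held AGGAAG on one strand or the other, against 29.5% of 32851 promoters of the same length. That count includes promoters of Fyb, Ptpn7 and Cblb, which had no probe set, and overlapping Ptprc windows that share a match. It leaves out members with no promoter entry, among them Sla, Cd28, Cd6 and Rac2, which were called lower. Promoters of Cd53, Lcp1 and Rasgrp1, which were called lower, held no match, nor did those of Fyb, Grap2 and Plcg1. Shares of other motifs lay nearer to those of all promoters. TGTGGT, the letters of a RUNX site, was in 11.8% of members' promoters and 14% of all, the GATA-factor letters AGATAA in 14.7% and 9.99%, and the E-box CAGCTG in 8.82% and 13%. A match describes letters only, and Lat held the ETS letters as well.

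The deposited signals had nearly equal trimmed means, the highest 1.01 times the lowest. Across probe sets, which do not count as replicates, the correlation of log2 signals was 0.973 within wild type, 0.972 within heterozygous hearts and 0.856 to 0.867 across genotypes. The heart label was borne out by cardiomyocyte markers. Myh6, the main adult cardiac myosin, gave 97752 and 87078 in wild type and 122362 and 120639 in heterozygous hearts. The wild-type pools also carried genes of immature T cells. Rag1, which cuts antigen receptor genes in the thymus, gave 25556 and 28828 there, beside 3183 and 3251 in heterozygous hearts. Dntt, another such gene, gave 19689 and 21986 in wild type and 2766 and 3162 in heterozygous hearts.

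Transcripts of this signalling and cytoskeletal set were lower in the heterozygous hearts, with few exceptions. Both heterozygous pools lay below both wild-type pools for 28 of the 31 genes on their brightest probe set, where 30.5% of all genes with a probe set did so. None lay above, where 32% of all genes did, and Lat, Plcg1 and Grap2 overlapped. The median log2 change over the 31 genes was -2.29, a 4.88-fold decrease, against 0.015 over all 8251 genes. A fall of at least 4-fold was seen in 19 of the 31, compared with 3.14% of all genes. Because the list was chosen with earlier results of these data known, these contrasts describe it and are no independent test. In bulk tissue, fewer cells of a type and less RNA per cell cannot be told apart. The tissue that the Rag1 and Dntt transcripts came from was not tested.

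Of the 28 tested members, 25 were called lower by limma at an adjusted p under 0.05 and 3 (Lat, Plcg1 and Csk) did not pass, beside 19.1% of all 5703 tested genes called lower. By probe set, 31 of 35 were called lower (19.8% of all tested probe sets). None of the 35 was called higher by limma, where 17.7% of all probe sets were, and 0 were higher at an unadjusted p under 0.05. The filter on dim probe sets works on the mean over the arrays, so a gene that fell far could drop out. With no filter, 15 of all 31 members were called lower (6.23% of all genes), by probe set 18 of 46 (5.82% of all), and the calls of Arhgap9, Cd247, Cd37, Lsp1, Prkcq, Ptpn22, Rasgrp1, Vav1, Was, the brighter Cd6 and the dimmer Lcp1 probe set ended.

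**Figure D1:**
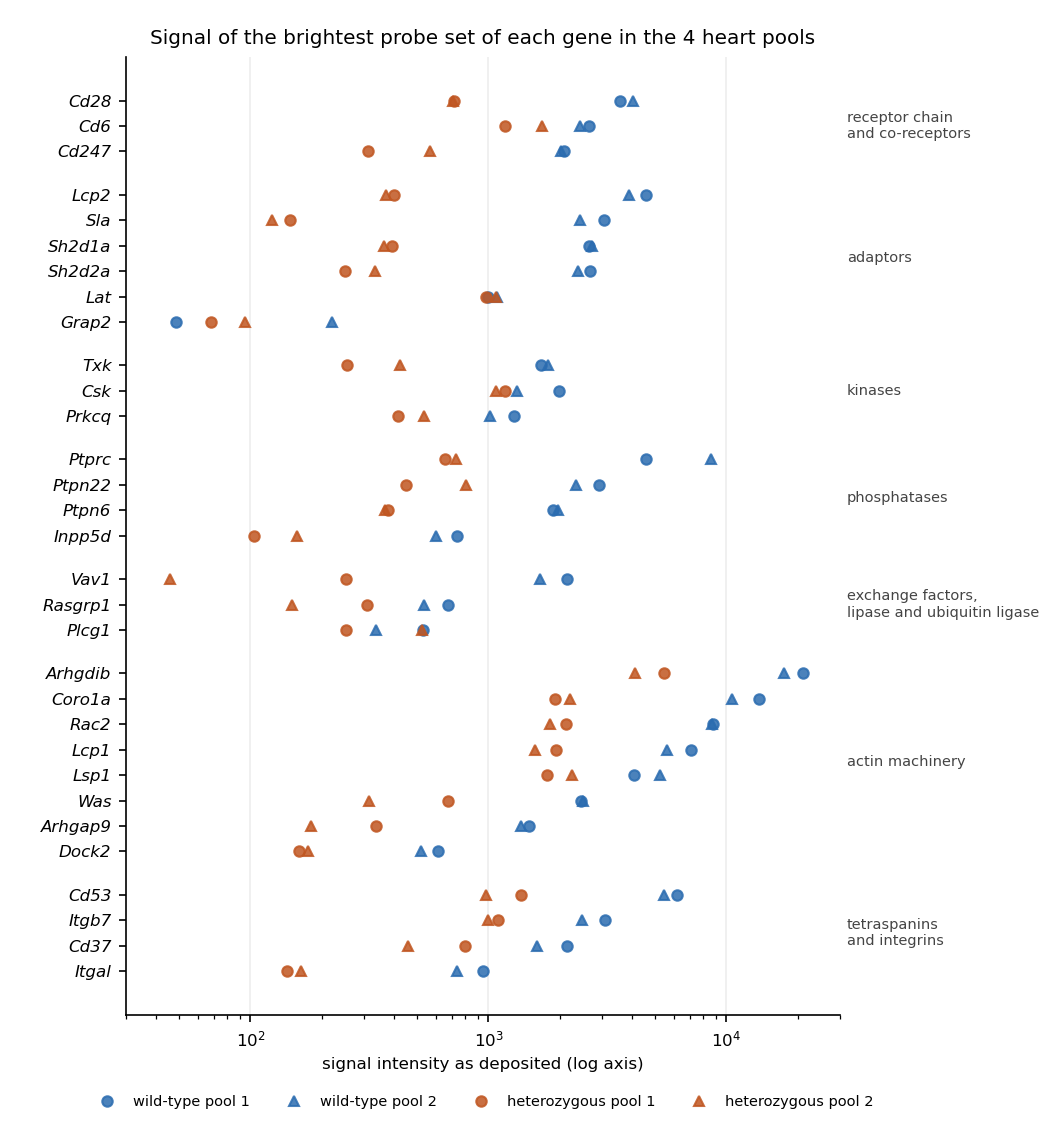
Signal intensity as deposited (log axis) of the brightest probe set of each of the 31 genes, grouped by role. Circles are pool 1 and triangles pool 2, blue for wild type and orange for heterozygous. For 28 genes both orange symbols lie left of both blue ones, while Lat, Plcg1 and Grap2 overlap.

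The receptor chain and co-receptors fell together, 3 of 3 tested. Here and in the role groups below, a fall is a call made with the filter, and 19.1% of all tested genes were called lower. Cd247 encodes the zeta chain, which carries most of the receptor's signalling tyrosines. Its signal was 2074 and 2018 in wild type, and 310 and 566 in heterozygous hearts. The groups were far apart, although the heterozygous pools differed from each other (log2 change -2.29, SE 0.29, limma adjusted p = 0.000439). A dim second Cd247 probe set, not tested, read 179 and 225 against 158 and 128. Cd28, the main co-stimulatory receptor of naive T cells, gave 3586 and 4043 in wild type and 715 and 707 in heterozygous hearts. Pools within a genotype were close, and the decrease was 5.36-fold (log2 change -2.42, SE 0.17, limma adjusted p = 2.27e-05).

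Cd6, a T cell surface glycoprotein that binds the adhesion molecule ALCAM, was measured by a pair of probe sets that fell by different amounts. The brighter one read 2633 and 2436 in wild type and 1176 and 1676 in heterozygous pools (log2 change -0.85, SE 0.21, limma adjusted p = 0.0111). The other read 1195 and 974 against 152 and 124 (log2 change -2.98, SE 0.31, limma adjusted p = 0.00017). The groups did not overlap on either. The call on the brighter probe set also ended without heterozygous pool 1 (-0.60).

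Adaptors had the largest median decrease of the role groups, and 4 of 5 tested members fell. Sla, an adaptor that promotes the turnover of the receptor complex, gave 3053 and 2421 in wild type and 147 and 124 in heterozygous pools. Heterozygous hearts kept 4.93% of the wild-type mean (log2 change -4.34, SE 0.26, limma adjusted p = 1.03e-05). Lcp2 is the cytosolic scaffold that joins phospholipase C and Vav1 to Lat. It read 4612 and 3900 in wild type and 401 and 372 in heterozygous hearts (log2 change -3.46, SE 0.19, limma adjusted p = 7.78e-06), and within each genotype the pools stayed close.

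The SH2-domain adaptors Sh2d1a and Sh2d2a fell as well. Sh2d1a, the SLAM-receptor adaptor mutated in X-linked lymphoproliferative disease, gave 2652 and 2734 against 394 and 364, a 7.12-fold decrease (log2 change -2.83, SE 0.19, limma adjusted p = 1.87e-05). Sh2d2a, an adaptor that binds the kinase LCK, gave 2668 and 2373 against 249 and 333, an 8.74-fold decrease (log2 change -3.13, SE 0.23, limma adjusted p = 2.82e-05). In both genes the heterozygous pools lay far below the wild-type pools.

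Lat, in contrast to the other tested adaptors, was not called lower. It is the membrane adaptor on which Lcp2 is assembled after receptor engagement. The signal was 1000 and 1082 in wild type and 979 and 1077 in heterozygous hearts, so the groups overlapped almost fully. The log2 change was -0.02 (SE 0.20, limma adjusted p = 0.949), with a 95% interval of -0.46 to 0.42, or from 1.38-fold lower to 1.34-fold higher. Its sign was not stable: the log2 change was 0.16 with a common array median, 0.14 under quantile normalization and 0.07 under cyclic loess. With arrays centred on cardiomyocyte markers, which lowers every gene by the same amount, Lat was called lower (-0.65, limma adjusted p = 0.0235). So were 51.5% of all tested probe sets. A single probe set reads Lat. Grap2, which bridges Lat and Lcp2, was too dim to be tested. It read 48.7 and 221 in wild type and 68.5 and 95.3 in heterozygous pools, so the groups overlapped.

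**Figure D2:**
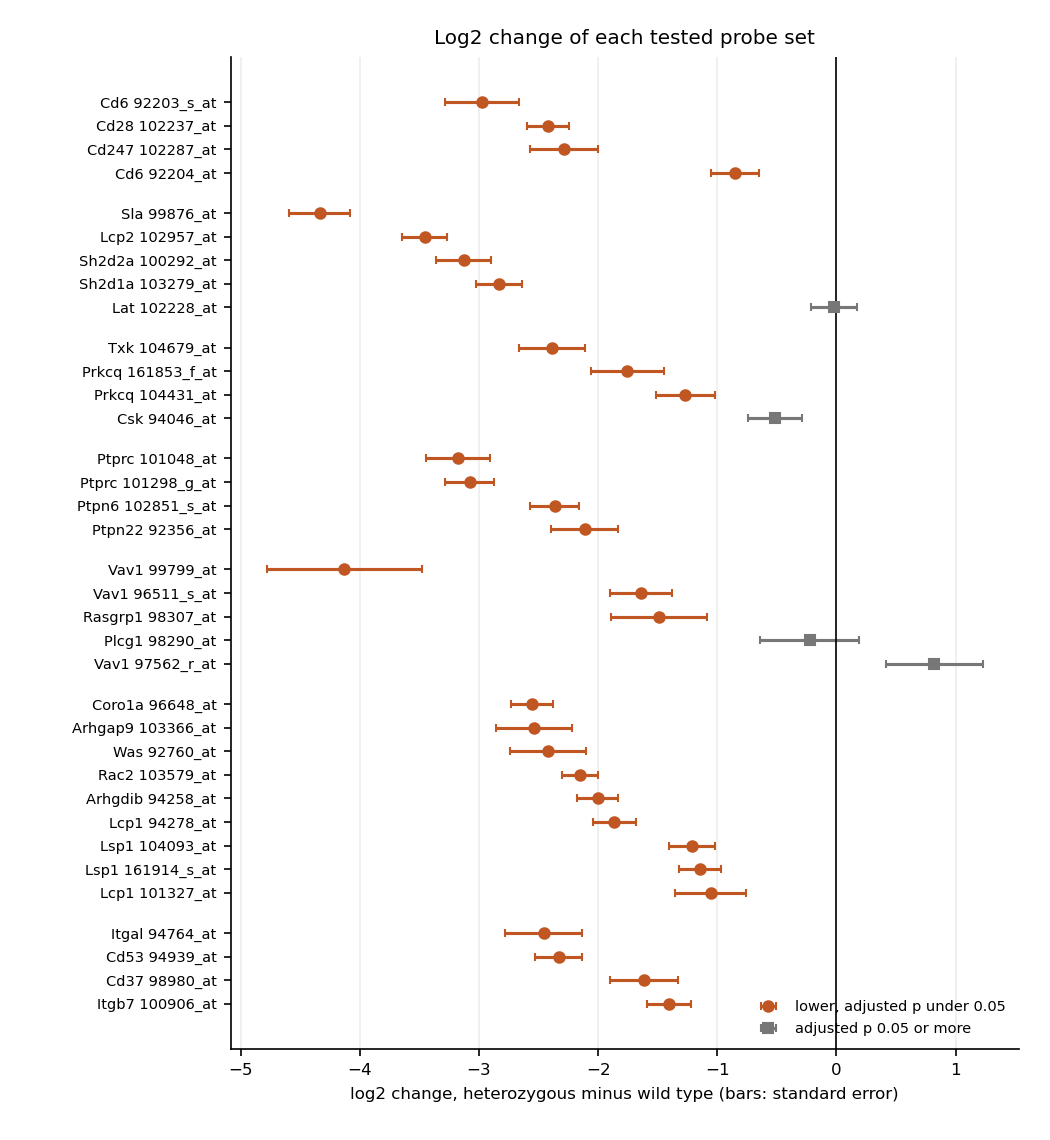
Log2 change (heterozygous minus wild type) of each of the 35 tested probe sets, with limma's standard error as bars, grouped by role. Orange circles mark the 31 probe sets called lower, and grey squares mark Lat, Csk, Plcg1 and one Vav1 probe set, which did not pass.

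Among kinases, 2 of 3 fell. Txk, a Tec-family kinase of T cells, gave 1666 and 1771 in wild type and 254 and 424 in heterozygous hearts (log2 change -2.39, SE 0.28, limma adjusted p = 0.000296). A dim Txk probe set, not tested, read 205 and 192 against 168 and 57.2. Prkcq, protein kinase C theta, links the receptor to NF-kB and is also made in skeletal muscle. Its brighter probe set read 1276 and 1013 against 418 and 534 (log2 change -1.27, SE 0.25, limma adjusted p = 0.00397), and the other read 786 and 793 against 281 and 195 (log2 change -1.76, SE 0.31, limma adjusted p = 0.00237). Neither overlapped between genotypes.

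Csk, which keeps Src-family kinases inactive in many tissues, did not pass. Its brighter probe set gave 1976 and 1316 in wild type and 1174 and 1081 in heterozygous pools. The heterozygous pools were the lower ones, but the wild-type pools differed widely (log2 change -0.52, SE 0.23, limma adjusted p = 0.103, 95% interval -1.03 to -0.005 before adjustment). It was called lower without wild-type pool 2 (-0.81) and with arrays centred on cardiomyocyte markers (-1.15). Under that centring 51.5% of all tested probe sets were called lower. A dim Csk probe set, not tested, overlapped between genotypes.

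All 3 tested phosphatases fell. Ptprc, the receptor phosphatase CD45 that is found on nearly all white blood cells, read 4610 and 8571 in wild type and 656 and 734 in heterozygous pools on the brightest probe set. A second read 2473 and 2489 against 287 and 300. The brightest differed between wild-type pools and the second did not, yet both gave similar decreases, with log2 changes of -3.18 (SE 0.27) and -3.08 (SE 0.21), and limma adjusted p = 5.36e-05 and 1.66e-05. The remaining Ptprc probe set lay below the floor of 36.4 on every array and holds no measurable change.

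Ptpn6, a phosphatase that dampens receptor signalling in blood cells, gave 1870 and 1958 against 378 and 366 (log2 change -2.36, SE 0.21, limma adjusted p = 6.43e-05). Ptpn22, which acts on LCK and ZAP70 and carries a variant linked to autoimmunity in humans, gave 2925 and 2327 against 451 and 805 (log2 change -2.11, SE 0.28, limma adjusted p = 0.000587). Its other probe set was below the floor on every array. Inpp5d, the inositol phosphatase SHIP of blood cells, was dimmed below the filter by its own decrease. It read 736 and 601 in wild type and 103 and 157 in heterozygous pools, without overlap. Its log2 change was -2.39, and with no filter it was not called lower (limma adjusted p = 0.0548). A dimmer Inpp5d probe set read 286 and 209 against 175 and 209.

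Of the enzymes that pass the signal on, 2 of 3 tested fell. Vav1, the exchange factor that activates Rac after receptor engagement, was read by 3 probe sets that disagreed. The brightest gave 2140 and 1654 in wild type and 252 and 45.8 in heterozygous pools. Its heterozygous pools were both low but unequal, so the log2 change of -4.13 (SE 0.65, limma adjusted p = 0.00142) was -5.36 without heterozygous pool 1 and -2.90 without heterozygous pool 2. Another read 1170 and 1344 against 486 and 333 (log2 change -1.64, SE 0.26, limma adjusted p = 0.00146). The dimmest read 245 and 462 against 803 and 440, where the groups overlapped (log2 change 0.82, SE 0.41, limma adjusted p = 0.143). Without wild-type pool 2 that probe set passed as higher (1.28, limma adjusted p = 0.0475).

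Rasgrp1, which activates Ras in T cells, gave 679 and 537 in wild type and 310 and 150 in heterozygous pools. The groups did not overlap (log2 change -1.49, SE 0.40, limma adjusted p = 0.0184), but the call ended without wild-type pool 1 (-1.32) or heterozygous pool 2 (-0.96). Plcg1, a phospholipase C of many tissues that Lat recruits, gave 531 and 338 against 251 and 524. Each genotype spanned about the same range (log2 change -0.23, SE 0.42, limma adjusted p = 0.706), and the 95% interval ran from -1.17 to 0.72.

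The genes of the actin machinery fell in 7 of 7 tested cases, beside 19.1% of all tested genes called lower. With no filter the calls of Was, Lsp1 and the brighter Arhgap9 probe set ended. Coro1a, the coronin of blood cells that T cells need to survive and migrate, gave 13700 and 10528 in wild type and 1898 and 2201 in heterozygous hearts, a 5.88-fold decrease (log2 change -2.56, SE 0.17, limma adjusted p = 1.76e-05). Rac2, the Rac GTPase of blood cells, gave 8754 and 8706 against 2127 and 1822 (log2 change -2.15, SE 0.15, limma adjusted p = 2.13e-05). In both genes the pools of a genotype were far closer to each other than to the other genotype. Arhgdib, which is made mainly in blood cells, gave 20920 and 17374 against 5457 and 4144, a 4.01-fold decrease (log2 change -2.003, SE 0.17, limma adjusted p = 5.95e-05).

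Was, the Wiskott-Aldrich syndrome protein that starts branched actin filaments, gave 2450 and 2492 in wild type and 673 and 316 in heterozygous pools. The wild-type pools matched and the heterozygous pools did not, yet the groups were well apart (log2 change -2.42, SE 0.32, limma adjusted p = 0.000594). Arhgap9, a GTPase-activating protein of blood cells, gave 1483 and 1374 against 336 and 180 on its brighter probe set (log2 change -2.54, SE 0.32, limma adjusted p = 0.000472). The other, outside the filter, read 1011 and 1151 against 51.6 and 87.8, and passed with no filter (log2 change -4.00, limma adjusted p = 0.0345).

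Lcp1, L-plastin, bundles actin filaments in white blood cells. Its brighter probe set gave 7089 and 5652 against 1921 and 1576 (log2 change -1.86, SE 0.18, limma adjusted p = 0.00011), and the other gave 687 and 533 against 309 and 274 (log2 change -1.06, SE 0.30, limma adjusted p = 0.0222). The smaller call also ended under quantile normalization (-0.89) and without either heterozygous pool (-1.14 without pool 1, -0.97 without pool 2) or wild-type pool 1 (-0.87). Lsp1, an actin-binding protein of leukocytes, fell least in this group on the brightest probe sets, and a pair of probe sets gave like values. One read 4082 and 5239 against 1768 and 2250 (log2 change -1.21, SE 0.19, limma adjusted p = 0.00141) and the other 4542 and 4223 against 1745 and 2255 (log2 change -1.14, SE 0.18, limma adjusted p = 0.00126).

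Dock2, an exchange factor for Rac in lymphocytes, was not tested because of its low mean. It gave 612 and 519 in wild type and 159 and 175 in heterozygous pools, with no overlap. The log2 change was -1.76, and with no filter Dock2 was not called lower (limma adjusted p = 0.052).

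Tetraspanins and integrins fell in 4 of 4 tested cases. Cd53, a tetraspanin of leukocytes, gave 6200 and 5443 in wild type and 1365 and 975 in heterozygous pools (log2 change -2.33, SE 0.20, limma adjusted p = 5.36e-05). Cd37, a tetraspanin most abundant on B cells, gave 2141 and 1605 against 800 and 458 (log2 change -1.62, SE 0.29, limma adjusted p = 0.00258). Both were separated between genotypes. Itgal, the alpha chain of the integrin LFA-1, gave 948 and 735 against 142 and 163 (log2 change -2.46, SE 0.32, limma adjusted p = 0.000582). Itgb7, the beta chain of gut-homing integrins, gave 3083 and 2472 against 1095 and 995 (log2 change -1.40, SE 0.19, limma adjusted p = 0.0006). A dim Itgb7 probe set, not tested, overlapped between genotypes.

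Members differed in how much signal was left. Over the 25 called lower, heterozygous hearts kept from 4.93% (Sla) to 56.3% (Cd6) of the wild-type mean signal, with a median of 20%. The Cd6 value is that of its brighter probe set, and the other kept 12.7%. By role the median log2 change was -3.13 for adaptors, -2.36 for phosphatases, -2.29 for the receptor chain and co-receptors and -2.15 for the actin machinery. It was -1.97 for tetraspanins and integrins, -1.49 for the exchange factors and lipase, and -1.27 for kinases. These groups hold 3 to 7 tested genes and were not tested against each other. By breadth of expression, the 9 tested genes mainly of the T and NK lineage had a median of -2.29 and the 17 of leukocytes at large one of -2.36. Csk and Plcg1, the tested genes of many tissues, had a median of -0.37.

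The pools of a genotype differed less than the genotypes did. The median absolute log2 difference between pools over tested members was 0.29 in wild type and 0.35 in heterozygous hearts, against 0.20 in either genotype over all tested genes. Wild-type pool 1 was above pool 2 in 22 of the 31 members, and heterozygous pool 1 above pool 2 in 16. Over all 8251 genes these counts were 4130 and 3901. Under every scaling tried the median log2 change of tested members stayed below -2, from -2.13 with a common array median to -2.94 with arrays centred on cardiomyocyte markers. These scalings moved the median of all probe sets from 0.008 to 0.19 and to -0.62 (0.11 under quantile normalization). Lower calls made up 52.8% of all calls as deposited, 36.6% with the common median and 95.1% with the cardiomyocyte centring.

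Other genes of receptor signalling fell in part. Of 36 tested, 21 were called lower (19.1% of all tested genes), 2 were called higher (19.2% of all) and 13 remained uncalled. Their median log2 change was -0.67, against 0.03 over all tested genes. With arrays centred on cardiomyocyte markers it was -1.30, and 28 were called lower. Over all tested probe sets the median was then -0.62, and 51.5% were called lower. Fewer of them were called lower without wild-type pool 1 or without heterozygous pool 2, as was so over all tested probe sets. The largest decreases were those of Zap70 (log2 change -3.62), the kinase that docks on the zeta chain, the adhesion receptor Cd2 (-3.25), the GTPase Rhoh (-2.92) and the adaptor Pag1 (-2.60). Next came Cd5 (-2.59), an inhibitory receptor, and Ptprcap (-2.18), a partner of CD45. Zap70, Cd2 and Cd5 are T cell markers as well. Zap70 gave 11069 and 9729 in wild type and 902 and 793 in heterozygous pools, so the groups were far apart.

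The higher calls fell on Jun and Ppp3ca, which many tissues make. Jun, a transcription factor that also responds to stress, rose from 466 and 579 to 1645 and 1431 (log2 change 1.56, SE 0.22, limma adjusted p = 0.000809). Ppp3ca, a catalytic subunit of calcineurin, gave 1571 and 1972 in wild type and 3542 and 3380 in heterozygous pools (log2 change 0.98, limma adjusted p = 0.00265), a call that ended with arrays centred on cardiomyocyte markers (0.35).

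Among other cytoskeletal and adhesion genes, 23 of 40 tested were called lower (19.1% of all tested genes), 1 was called higher (19.2% of all) and 16 remained uncalled. The median log2 change was -0.72, and with arrays centred on cardiomyocyte markers it was -1.35 and 37 were called lower. That centring called 51.5% of all tested probe sets lower, with a median of -0.62 over all of them. The largest decreases were in genes of blood cells. They were Rassf5 (-2.67), which activates integrins downstream of Rap1, Cytip (-2.63), Itgb2 (-2.45), the beta chain that pairs with Itgal, Cd52 (-2.39), Apbb1ip (-2.31) and Cd48 (-2.23). Itgb2 gave 2589 and 1598 in wild type and 399 and 350 in heterozygous pools, without overlap. The higher call was Itgb1, the widely expressed integrin beta chain.

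Relatives of the members were set beside them. Many of these are made in other tissues too, while some, such as Blnk and Rasgrp2, are genes of blood cells. Rac1, the widely expressed Rac, gave 23276 and 17586 in wild type and 33874 and 24227 in heterozygous pools (log2 change 0.50, SE 0.19, limma adjusted p = 0.0708), where Rac2 had -2.15. It was called higher with a common array median (0.68) and turned to -0.13 with arrays centred on cardiomyocyte markers. Coro1b had -0.07 beside -2.56 for Coro1a, but 0.11 with the common median and 0.06 under quantile normalization. Cd9 had 0.05 beside -2.33 for Cd53, and was called lower (-0.58) with the cardiomyocyte centring, as was Coro1b (-0.69). With it, 51.5% of all tested probe sets were called lower. Pls3, T-plastin, rose (0.80, SE 0.20, limma adjusted p = 0.0119) where Lcp1 fell, Cd151 rose (0.89, SE 0.15, limma adjusted p = 0.00172) where Cd37 fell, and Itgb1 rose (0.43, SE 0.13, limma adjusted p = 0.0264) where Itgb7 fell. Inppl1, a relative of Inpp5d, rose too (0.58, limma adjusted p = 0.0409). With the cardiomyocyte centring none of the rises of Pls3, Cd151, Itgb1 and Inppl1 passed, and Itgb1 (-0.20) and Inppl1 (-0.04) turned below 0. The Itgb1 and Inppl1 calls also ended under quantile normalization (0.20 and 0.54) and cyclic loess (0.11 and 0.46).

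Tec and Rasgrp2 were called in the direction of their member. Tec fell by 0.61 on the log2 scale beside Txk, and Rasgrp2, found in platelets and lymphocytes, fell by 0.73 beside Rasgrp1. Blnk, the B cell counterpart of Lcp2, had -0.56 (limma adjusted p = 0.133) and passed only with the cardiomyocyte centring among the scalings (-1.19). Matk (-0.24), Prkce (0.60) and Grb2 (0.50) did not pass. Prkce and Grb2 were called higher with the common median (0.78 and 0.68), Grb2 also under quantile normalization (0.62), and both turned below 0 with the cardiomyocyte centring (-0.03 and -0.13). The Tec and Rasgrp2 calls ended with a common array median (-0.43 and -0.55), and the Rasgrp2 call also under quantile normalization (-0.57). Of the relatives too dim to be tested, Vav2 read 378 and 226 in wild type and 86.8 and 128 in heterozygous pools, the direction of the brightest Vav1 probe set. Plcg2 (313 and 439 against 215 and 150) and Cbl (353 and 579 against 203 and 185) were also lower in both heterozygous pools. Ptpn11 (66.2 and 25.8 against 186 and 103) was higher in both, and Fcer1g overlapped. Wasl, Dock1 and Arhgdia had no probe set that carried their symbol alone. The difference in change within a pair was not tested.

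**Figure D3:**
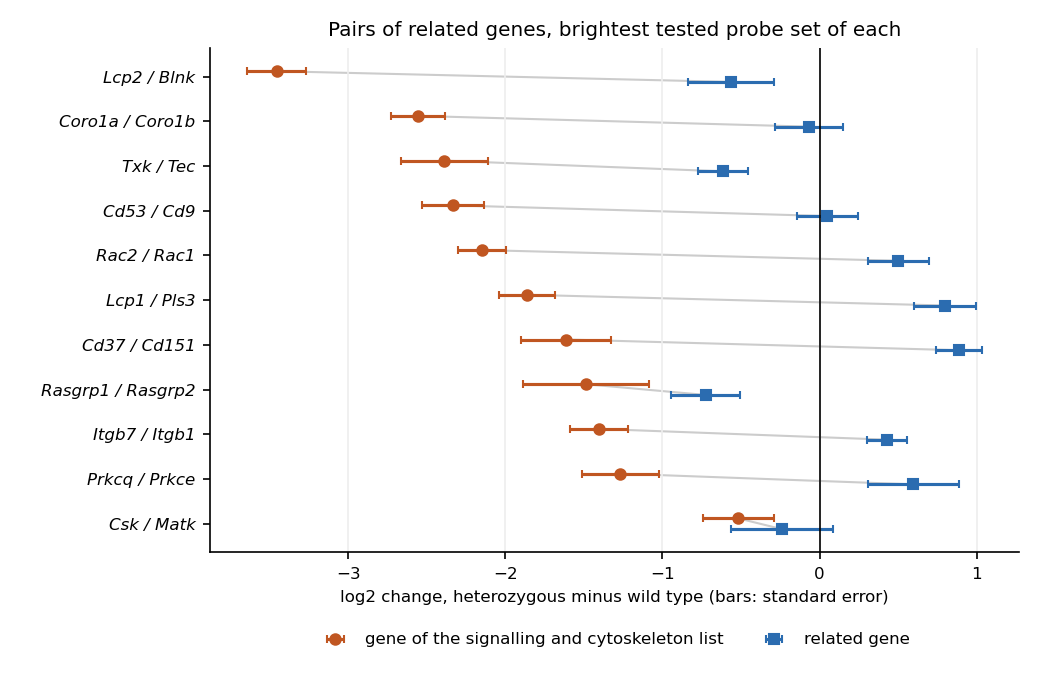
Log2 change (heterozygous minus wild type, as deposited) for 11 pairs in which both genes were tested, with limma's standard error as bars. Orange circles are genes of the signalling and cytoskeleton list and blue squares their relatives. The orange value lies left of the blue one in every pair shown, by most for Lcp2 and Blnk and by least for Csk and Matk.

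Markers of several cell types moved with these genes, where 19.1% of all tested genes were called lower. T cell markers were called lower in 11 of 11 cases (median log2 change -3.25), and their summed signal went from 98545 to 108715 in wild type to 11029 to 12346 in heterozygous pools, which leaves 11.3%. Cd8b1, Thy1, Cd8a and Cd3d were among them. Immature thymocyte markers fell in 3 of 3 tested cases (summed signal 47625 to 53109 and 6189 to 6644), and cell cycle genes in 12 of 12 (58392 to 61559 and 10703 to 12137). The members' own summed signal was 103451 to 112196 in wild type and 25388 to 26426 in heterozygous pools, which leaves 24%.

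Markers of other cells were mixed, and 19.1% of all tested genes were called lower. B cell markers were called lower in 4 of 8 cases (summed signal 11940 to 12469 and 5813 to 6600), and macrophage and monocyte markers in 2 of 10, with 1 higher (25445 to 26970 and 25547 to 25695). Neutrophil markers were lower in 1 of 6 cases (4688 to 5840 and 4733 to 4788). The medians of macrophage (0.075) and neutrophil markers (0.015) turned to -0.55 and -0.61 with the cardiomyocyte centring. The NK cell marker bright enough to be tested, Gzma, was lower (log2 change -2.36, summed signal of the list 1602 to 2037 and 619 to 673). That of mast cells and platelets, Tpsb2, was lower too, at 939 and 980 in wild type and 627 and 369 in heterozygous pools. The whole mast cell and platelet list, Tpsb2 included, summed to 1942 to 2036 and 1546 to 1583, and its other genes were too dim to be tested. Lower calls were also made for 2 of 3 thymic epithelium markers (summed signal 5836 to 6326 and 1657 to 1949).

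Markers of heart tissue and of erythroid cells went the other way on the deposited scale. Of all tested genes, 19.2% were called higher. Cardiomyocyte markers were higher in 10 of 11 cases (summed signal 476222 to 526766 and 722939 to 752972), endothelial ones in 8 of 9 (17799 to 18295 and 33241 to 36989), fibroblast ones in 6 of 7 (48504 to 51928 and 86417 to 92835) and erythroid ones in 2 of 4 (129003 to 144753 and 161355 to 177240). Their medians of 0.61, 0.97, 0.74 and 0.61 became -0.02, 0.34, 0.12 and -0.02 with arrays centred on cardiomyocyte markers. That centring uses the cardiomyocyte list itself, so a cardiomyocyte median near 0 is built in and is no result. No marker was at 0 on any array. The part of any of these cell types in the members' decrease was not tested.

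**Figure D4:**
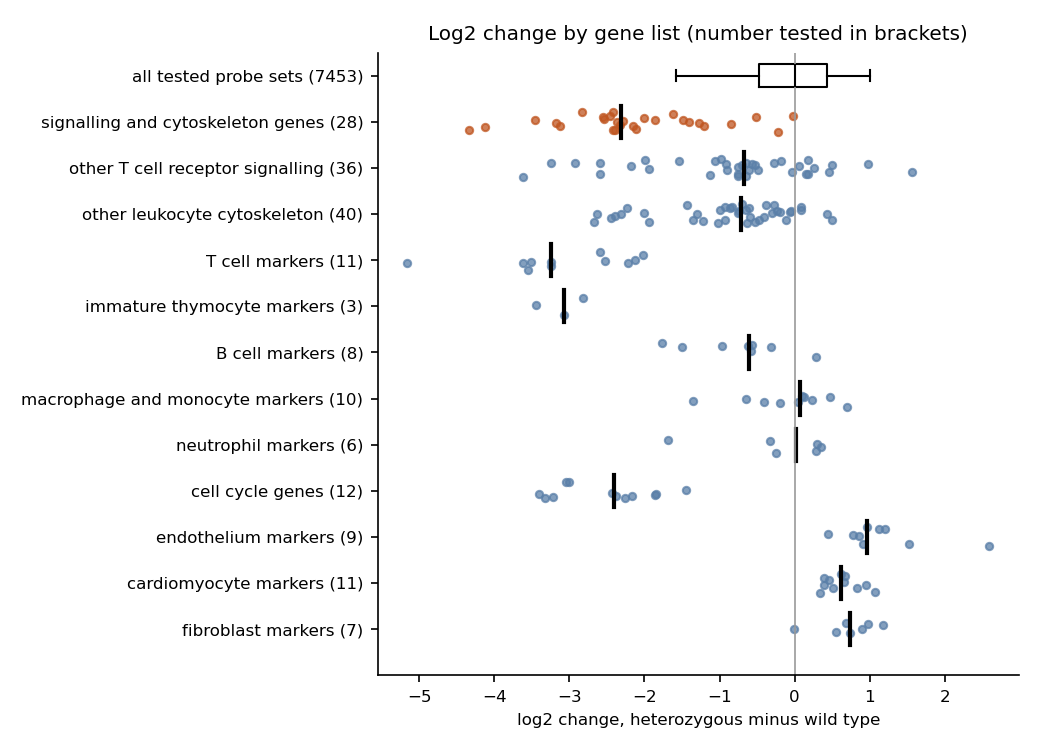
Log2 change (heterozygous minus wild type, as deposited) by gene list, 1 point per tested gene on its brightest tested probe set, with black bars at the medians. The box holds the middle of all 7453 tested probe sets, with whiskers at the 5th and 95th percentiles. The signalling and cytoskeleton genes have a median of -2.31, between those of T cell markers (-3.25) and B cell markers (-0.61).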

How the data were processed

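Whole-heart RNA of 2 wild-type and 2 heterozygous pools was measured on 1-colour arrays; the gene in which the mice were heterozygous is not reported here. The authors deposited a linear signal intensity for each probe set on each array. The software that summarised the probes was not given in the sources used here. Trimmed means (2%) of the arrays lay within 1.05 times of each other, so the values were used as deposited and are relative to each array's total. The 66 controls were removed from 12488 probe sets, signals below the 10th percentile (36.4) were set to that value and log2 values were used. The 40% of probe sets with the lowest mean log2 value were not tested, leaving 7453. They were fitted together with limma 3.58.1 in R 4.3.3 (lmFit, eBayes with trend, genotype as the term), with Benjamini-Hochberg adjustment and a threshold of 0.05. An exact two-sided permutation test of 2 against 2 cannot give p below 0.333. The number of arrays limits the precision.

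A gene is represented by its brightest tested probe set. Gene symbols came from the platform's annotation (10855 probe sets had 1 symbol, 396 several, 1237 none). The members and lists were chosen with earlier results of these data known. Named genes are all members and their listed relatives, the largest called changes of each pathway list and bright markers. Promoters came from RefSeq (GRCm38.p6). The fit was tested on simulated data. Other scalings, floors, filters, moderation, the pool number as a block and each pool left out were tried. Plots were drawn with matplotlib 3.10.9.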

Additional observations from a re-analysis of the deposited data

How the results depend on the processing

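The median log2 change of tested members (-2.31) was -2.94 with arrays centred on cardiomyocyte markers, -2.13 with a common array median, -2.19 under quantile normalization, -2.13 with the filter raised to the lowest 60% and -2.22 with a gene's probe sets averaged. It ran from -2.32 to -2.09 with a pool left out. Members called lower (25 genes, 31 probe sets) numbered 15 genes and 18 probe sets with no filter, and 16 and 17 with that higher filter, where fewer were tested. That filter left 18 members, and 22.1% of all probe sets were called lower under it. Member probe sets called higher numbered 0 to 1 with a pool left out. All calls (1476 lower, 1320 higher) were 723 and 482 with no filter and 3839 and 199 with cardiomyocyte centring, and higher calls ran from 610 to 1142 with a pool left out, 610 without heterozygous pool 1 and 612 without heterozygous pool 2. Other cytoskeletal genes called lower rose from 23 to 37 with cardiomyocyte centring, and other receptor signalling genes (21) ran from 13 to 14 with a pool left out. The log2 change of Lat changed sign with a common median (0.16), quantile normalization (0.139), cyclic loess (0.067), without heterozygous pool 1 (0.05) and without wild-type pool 2 (0.039), and ran from -0.087 to 0.05 with a pool left out. That of Plcg1 changed sign without heterozygous pool 1 (0.305) and without wild-type pool 1 (0.1), and ran from -0.757 to 0.305. Other floors, eBayes without a trend and robust eBayes changed no call among the 35 member probe sets. The labels do not say that equal pool numbers mark shared animals or days. The deviations of same-numbered pools correlated at 0.165, and with pool number as a block 31 member probe sets were lower, with no call changed. With the filter on mean linear signal, an alternative chosen after seeing the data, 30 members were tested. Dock2 and Inpp5d entered there through their higher wild-type signals, so their values under it are not given. Apart from the filters, the causes of these shifts were not tested.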
